A study of Mus musculus with 32 samples.

Results

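The 10 genes described here encode the cyclins, cyclin-dependent kinases (CDKs) and CDK inhibitors of the G1 phase of the cell cycle: Ccnd1, Ccnd2, Ccnd3, Cdk4, Cdk6, Ccne1, Ccne2, Cdkn1a, Cdkn1b and Cdkn2c. They were chosen by gene symbol. All 10 were found in both expression tables, which list 26560 genes for Lin− cells and 25887 genes for CD11b+ cells, with 28827 genes in either. Peaks of the RNA-binding protein IGF2BP3 were assigned to a gene by the Ensembl gene ID that each peak carries.

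Cells pass through G1 when D-type cyclins bind CDK4 or CDK6 and phosphorylate the retinoblastoma protein, which releases E2F transcription factors, and E-type cyclins with CDK2 then complete that step. The CIP/KIP inhibitors p21 and p27 bind complexes of cyclins with CDKs, whereas INK4 inhibitors such as p18 bind CDK4 and CDK6 themselves. CDK6 is known as a kinase on which leukemia cells with MLL rearrangements depend, and IGF2BP3 is an oncofetal protein that binds RNA and is known for effects on the stability and translation of mRNAs.

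The study examined mouse cells transformed by MLL-Af4, a fusion oncogene, in 32 libraries. RNA-seq was done on 12 libraries, 3 WT/MLL-Af4 and 3 I3KO/MLL-Af4 in each cell type. Enhanced crosslinking and immunoprecipitation (eCLIP), which sequences the RNA fragments bound to a protein, gave 10 libraries for IGF2BP3, in Lin− cells 3 biological and 3 technical replicates and in CD11b+ cells 2 and 2. Each came with a size-matched input (smInput), 10 libraries in all. By the methods of the study, a small part of each sample was set aside for its input after immunoprecipitation.

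WT donors were C57BL/6J mice, and I3KO donors carried a germline deletion of Igf2bp3. Lin− cells were bone marrow cells depleted of mature lineages, infected with the retrovirus MSCV-MLL-FLAG-Af4, selected with G418 and cultured, so every Lin− group shared the retrovirus, the drug and culture. CD11b+ cells came from splenic tumors of mice given transduced cells and were selected on magnetic beads with an antibody to CD11b. The eCLIP cells were WT/MLL-Af4 in both cell types. In the transplants that the study describes, donor marrow was enriched with 5-FU, infected with the same retrovirus and also selected with G418. Donors and recipients were female and 8 weeks old, and the recipients, B6.SJL-Ptprc-Pep3/BoyJ mice, had been lethally irradiated.

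Depth differed between eCLIP libraries. Their read totals are unknown, so the number of peaks and of the reads within them are its only measures. Lin− biological replicates 1 to 3 held 9111, 11606 and 9911 peaks, and technical replicates 4 to 6 held 5455, 7871 and 5550. CD11b+ biological replicates 1 and 2 held 9555 and 11771 peaks, and technical replicates 3 and 4 held 8609 and 8566. Removal of peaks that overlap an smInput peak left 4040 to 10042 peaks per Lin− library and 7085 to 10054 per CD11b+ library, called filtered peaks below. The smInput libraries held far fewer peaks, from 217 (Lin− 5) to 1885 (CD11b+ 2). Reads within peaks did not follow the same order, with 137856 to 711782 per eCLIP library and 27770 to 894140 per smInput library. To allow for depth, filtered peaks on a gene are given per 10000 filtered peaks of the library, and unfiltered ones per 10000 unfiltered peaks.

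Levels in the expression tables are a mean of normalised read counts over the 6 libraries of both genotypes, with no value per library. They therefore have no spread and no test, and the order of neighbouring genes cannot be judged against replicates. Because the 2 tables were normalised separately, cell types were set side by side by percentile, the share of genes in a table with a lower mean per kb of exons. In such bulk samples, fewer cells of a type and less RNA per cell cannot be told apart.

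Marker genes matched the cell labels in part. Itgam, which encodes CD11b, was not listed in the Lin− table and had a mean of only 17 in the CD11b+ table, at percentile 30.4, below most genes of that table. Other myeloid markers were abundant: Lyz2, which encodes lysozyme, had means of 20990 in Lin− and 72146 in CD11b+ cells. The 5 myeloid markers summed to 34120 in Lin− cells, with 4 listed, and to 105486 in CD11b+ cells, and the 5 neutrophil markers to 9198 and 109329. The sum of the 5 progenitor markers was 144967 and 145335, mostly from the granule enzyme gene Mpo, with means of 101212 and 84102.

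Kit, the receptor of stem cell factor, stood at percentile 93.6 in Lin− and 66.6 in CD11b+ cells, and Cd34 at 98.2 and 86.0. The granule genes Elane (99.7 and 99.9) and Ctsg (99.6 and 99.5), also counted among the 5 progenitor markers, were near the top in both. Markers of other lineages were present to different degrees. The 4 B cell markers summed to 405 and 747, led in both by Cd79b at percentiles 72.2 and 79.5, and the 3 T cell markers to 2.13, with Cd3e not listed, and 15.7. The 4 erythroid markers summed to 176 in Lin− and 2381 in CD11b+ cells, where the globin genes Hba-a1 (mean 1268) and Hbb-bs (mean 1083) stood at percentiles 95.6 and 95.3. The part of these cell types in the levels of the G1 genes was not tested. Igf2bp3 itself had means of 2041 and 1355, pooled over wild-type and knockout libraries.

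As a whole, the G1 genes were abundant. All 10 had a mean of at least 10 in both tables, and 7 in Lin− and 6 in CD11b+ cells had a mean of at least 1000. Of all listed genes, 16673 and 16191 had a mean of at least 10, and 6326 and 4487 one of at least 1000. The median percentile of the G1 genes was 93.9 in Lin− and 81.6 in CD11b+ cells. By mean per kb, the order in Lin− cells from high to low was Cdk4, Ccnd3, Cdk6, Ccnd1, Ccnd2, Cdkn1a, Cdkn1b, Cdkn2c, Ccne2 and Ccne1, with 18.8-fold between the ends. In CD11b+ cells it was Ccnd3, Cdk6, Cdk4, Cdkn1a, Ccnd1, Cdkn1b, Cdkn2c, Ccne1, Ccne2 and Ccnd2, a 57.5-fold range. Both orders thus put Cdk4, Cdk6 and Ccnd3 on top, and the place of Ccnd2 differed most.

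**Figure D1:**
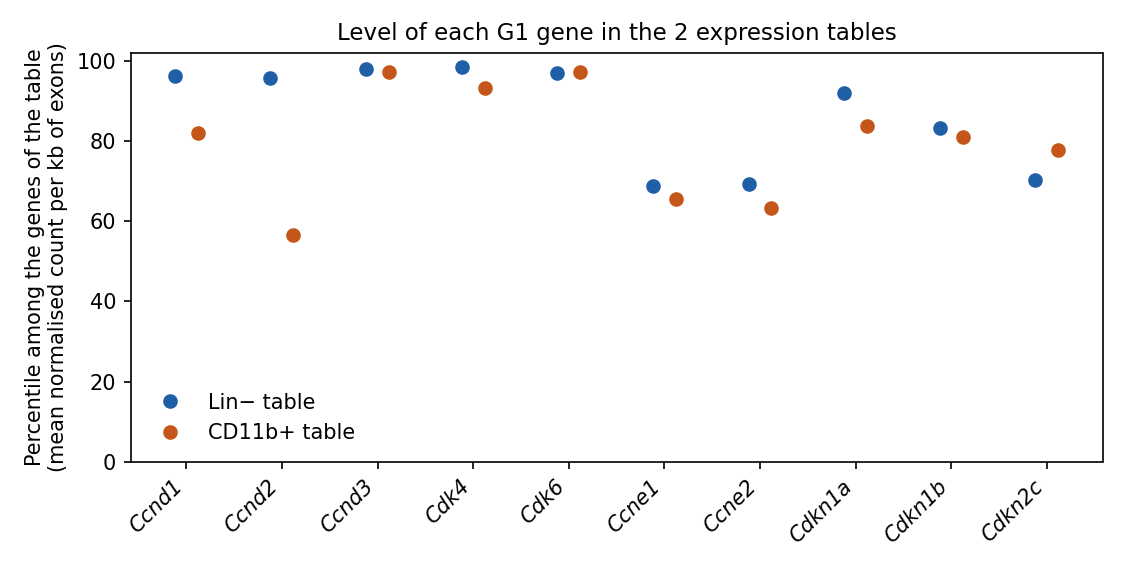
Percentile of each G1 gene among the genes of the Lin− table (blue) and of the CD11b+ table (orange), from the authors' pooled mean of normalised counts per kb of exons, with no error bars because the tables hold no value per library. Ccnd2 stands at 95.8 in Lin− and 56.5 in CD11b+ cells, while Ccnd3 and Cdk6 lie at 97.0 or above in both.

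IGF2BP3 peaks were found on 9 of 10 genes in Lin− cells, all but Cdkn2c, against 26.5% of all genes of the table, 39.8% of those with a mean of at least 10 and 76.5% of those with a mean of at least 1000. In CD11b+ cells 6 of 10 had a filtered peak (Ccnd1, Ccnd3, Cdk4, Cdk6, Cdkn1a and Cdkn1b), against 25.6%, 37.1% and 68.4% of the same classes of genes. Every G1 gene with a mean of at least 1000 had a peak, 7 of 7 in Lin− and 6 of 6 in CD11b+ cells, a class in which most genes of the table had one. Ccnd2, Ccne1 and Ccne2 had filtered peaks in Lin− libraries alone, as had 10.1% of the 23620 genes of both tables, and no G1 gene had them in CD11b+ libraries alone, against 8.42%. There were 6 Lin− but 4 CD11b+ libraries. Absence of a peak does not show absence of binding.

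The G1 genes carried 82 filtered peaks in the 6 Lin− libraries and 83 in the 4 CD11b+ libraries. By library they numbered 11, 24 and 18 in Lin− biological replicates 1 to 3 and 1, 20 and 8 in technical replicates 4 to 6. CD11b+ biological replicates 1 and 2 held 19 and 29, and technical replicates 3 and 4 held 15 and 20. Lin− 4, with the fewest filtered peaks of all libraries, also had the fewest on these genes, and the ranges of the cell types overlapped.

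Overlapping peaks were merged into 43 Lin− and 38 CD11b+ regions on the G1 genes. A region was called reproducible when at least 2 biological replicates held a peak in it, which 10 Lin− regions did (23.1% of all Lin− regions) and 4 CD11b+ regions did (19.2% of all CD11b+ regions). Biological replicates alone gave 40 and 44 regions, and 26 and 19 without replicate 2, which leaves a single library in CD11b+ cells. At a peak p-value below 0.001 there were 24 regions in Lin− and 31 in CD11b+ cells. Introns held 32 of the Lin− regions and 29 of the CD11b+ regions, against 78.5% and 84.7% of the regions of all genes. Within 50 bases of a splice site lay 21 of the 43 Lin− regions but 3 of the 38 CD11b+ regions, against 59.0% and 17.6%. In Lin− cells 16 of these 21 were at a 3′ splice site, on 8 of the 10 genes, all but Cdk6 and Cdkn2c, which made 37.2% of the Lin− regions of these genes against 41.5% of those of all genes. The median distance to a splice site was 84 bases for the Lin− regions and 5621 bases for the CD11b+ regions of these genes, against 25 and 959 bases for all genes. Ccnd3 and Cdk6 held 12 and 6 of the Lin− and 18 and 10 of the CD11b+ regions. Their medians were 4612 and 7011.5 bases in Lin− and 17309.5 and 6875.5 in CD11b+ cells. The other genes with regions had medians from 8 (Ccne1) to 432.5 (Ccnd2) in Lin− and from 49 (Cdk4) to 2443 (Ccnd1) in CD11b+ cells.

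IGF2BP proteins are known to favour CA-rich RNA. The letters ACACAC or CACACA were read on the strand of the RNA in a window of 60 bases around the middle of each region, and 14 Lin− and 17 CD11b+ regions held them, against 8.88% and 17.5% of the regions of all genes. All of these but a Lin− region of Ccnd2 lay on Ccnd3 or Cdk6, which have the longest gene bodies of the 10. Regions that lay side by side without overlap were counted separately. Several of those on Cdk6, and some on Ccnd3, were therefore pieces of the same CA repeat. Regions of all genes were counted in the same way. The shorter CACA, which those letters contain, stood in 23 and 20 regions (24.2% and 25.9% of all), and GGAC in 4 and 3 (14.1% and 11.7%). The opposite repeat, GTGTGT or TGTGTG, was counted after its presence had been seen on Ccnd3 and Cdkn1a, and stood in 7 and 7 regions (9.01% and 24.9% of all). Such letters describe a window and do not show a binding site.

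The D-type cyclins, partners of CDK4 and CDK6, differed from each other in level and in peaks. Ccnd1 (ENSMUSG00000070348), cyclin D1, had a mean of 7464 in Lin− cells (1996 per kb, percentile 96.3) and of 1361 in CD11b+ cells (364 per kb, percentile 82.1). Ccnd2 (ENSMUSG00000000184), cyclin D2, had a mean of 12193 in Lin− cells (1817 per kb, percentile 95.8) and of 394 in CD11b+ cells (58.6 per kb, percentile 56.5). Ccnd3 (ENSMUSG00000034165), cyclin D3, had a mean of 7951 in Lin− cells (3249 per kb, percentile 98.1) and of 8248 in CD11b+ cells (3371 per kb, percentile 97.3). The shift in percentile from Lin− to CD11b+ cells was thus −39.3 points for Ccnd2, −14.2 for Ccnd1 and −0.731 for Ccnd3. That of Ccnd2 depended on the genes ranked: among those with a mean of at least 10 it stood at 93.3 in Lin− and 30.6 in CD11b+ cells, and without length correction at 99.0 and 69.1. All these levels pool both genotypes, and the study reports lower Ccnd1 RNA in I3KO/MLL-Af4 than in WT/MLL-Af4 CD11b+ cells. The part of genotype in the Ccnd1 shift was not tested.

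Filtered peaks on Ccnd1 were few, 2.72, 2.99 and 0 per 10000 in Lin− biological replicates 1 to 3, and 1.17 and 0 in the 2 of CD11b+ cells. The groups overlapped at 0. Of its 4 Lin− regions, 3 lay within 50 bases of a splice site. The reproducible one, chr7:144937447-144937500 on the minus strand (all coordinates are of GRCm38), spanned the junction at the end of the second intron. A peak in the 3′ UTR was shared by Lin− 2 (chr7:144930286-144930335) and CD11b+ 1 (chr7:144930316-144930342), the latter the sole Ccnd1 region in CD11b+ cells.

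Ccnd2 had 0, 2.99 and 3.45 filtered peaks per 10000 in Lin− biological replicates 1 to 3 and none in the 4 CD11b+ libraries, a cell type in which its RNA stood at percentile 56.5. The lowest Lin− library was level with the CD11b+ libraries. Of its 6 Lin− regions, chr6:127148896-127148947 on the minus strand was reproducible, 41 bases from the 3′ splice site of the first intron.

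Ccnd3 carried the most filtered peaks of the 10 genes. In Lin− biological replicates 1 to 3 it had 2.72, 8.96 and 6.91 filtered peaks per 10000, and in technical replicates 4 to 6 it had 0, 7.70 and 2.22. In CD11b+ biological replicates 1 and 2 it had 4.69 and 15.9, and in technical replicates 3 and 4 it had 5.27 and 19.8. CD11b+ 2 and 4 stood above every Lin− library, while CD11b+ 1 and 3 lay within the Lin− range. The reads in these peaks differed in the same way, with 24 and 485 in CD11b+ 1 and 2 and 53 and 351 in CD11b+ 3 and 4.

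**Figure D2:**
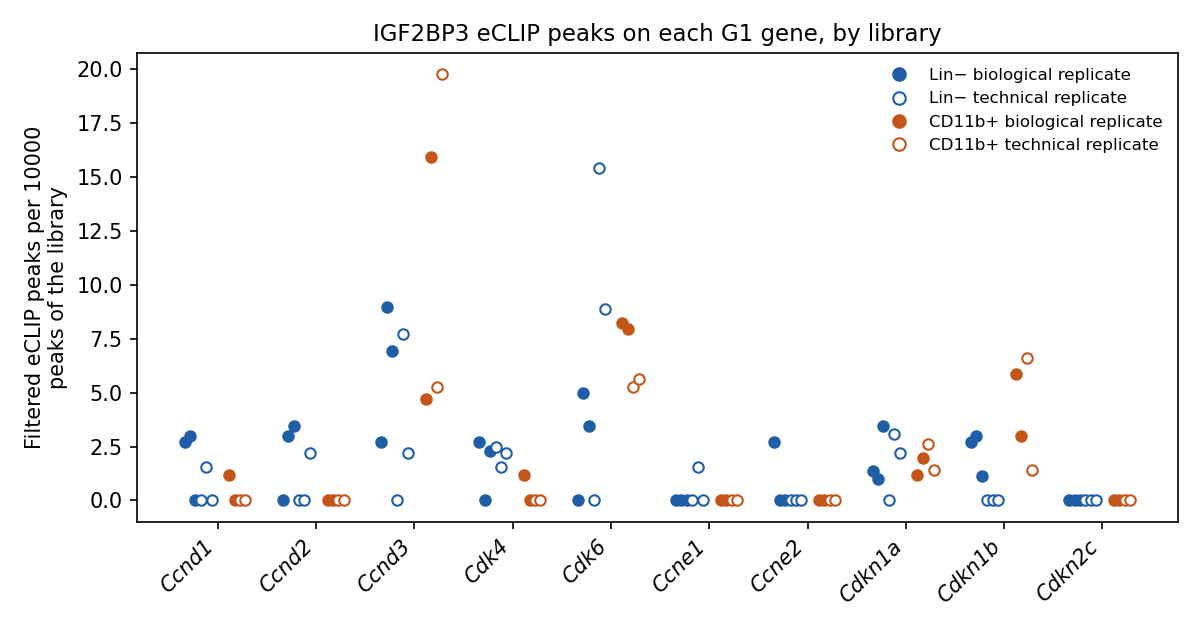
Filtered IGF2BP3 peaks per 10000 filtered peaks of the library on each G1 gene, with a point for each eCLIP library, filled for biological and open for technical replicates, in Lin− (blue) and CD11b+ cells (orange). Ccnd3 ranges from 0 to 19.8 per 10000, and Cdkn2c has no peak in any library.

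On Ccnd3 (chr17:47505051-47599691, plus strand) the 12 Lin− regions were of 2 kinds. At splice sites and exons near the start of the coding sequence lay 4 regions, of which chr17:47594688-47594752, over the 3′ splice site of the third intron, was held by all 3 biological replicates, and chr17:47593499-47593639, in the 5′ UTR of a shorter transcript, was reproducible too. The other 8 lay in introns over 500 bases from any splice site, as did 18.6% of the Lin− regions of all genes. Each of these 8 held ACACAC or CACACA. Of these, chr17:47509677-47509787 and chr17:47570221-47570266 were reproducible, and peaks of 4 smInput libraries lay over the former.

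In CD11b+ cells all 18 regions of Ccnd3 lay in introns, 16 in the first and 2 in the second, and each was over 500 bases from a splice site, with a median distance of 17310 bases. Windows of 11 held ACACAC or CACACA, and 13 regions were wholly repeat sequence (soft-masked in the genome). Of the CD11b+ regions of all genes, 52.8% were intronic and over 500 bases from a splice site, and 33.5% were wholly repeat sequence. Between the cell types, 9 of these 18 regions overlapped one of 8 in Lin− cells, and those 8 were the deep intronic ones. CD11b+ 2 held peaks in 14 of the 18 regions and technical replicate 4 in 12, but CD11b+ 1 and 3 in 4 each. The most reads in a peak, 120, were at chr17:47540573-47540652, and 80 were at chr17:47570211-47570272, neither with an smInput peak. A TG repeat, chr17:47516733-47516779, was the sole reproducible Ccnd3 region in CD11b+ cells and was held by all 4 libraries, with up to 34 reads in a peak.

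**Figure D3:**
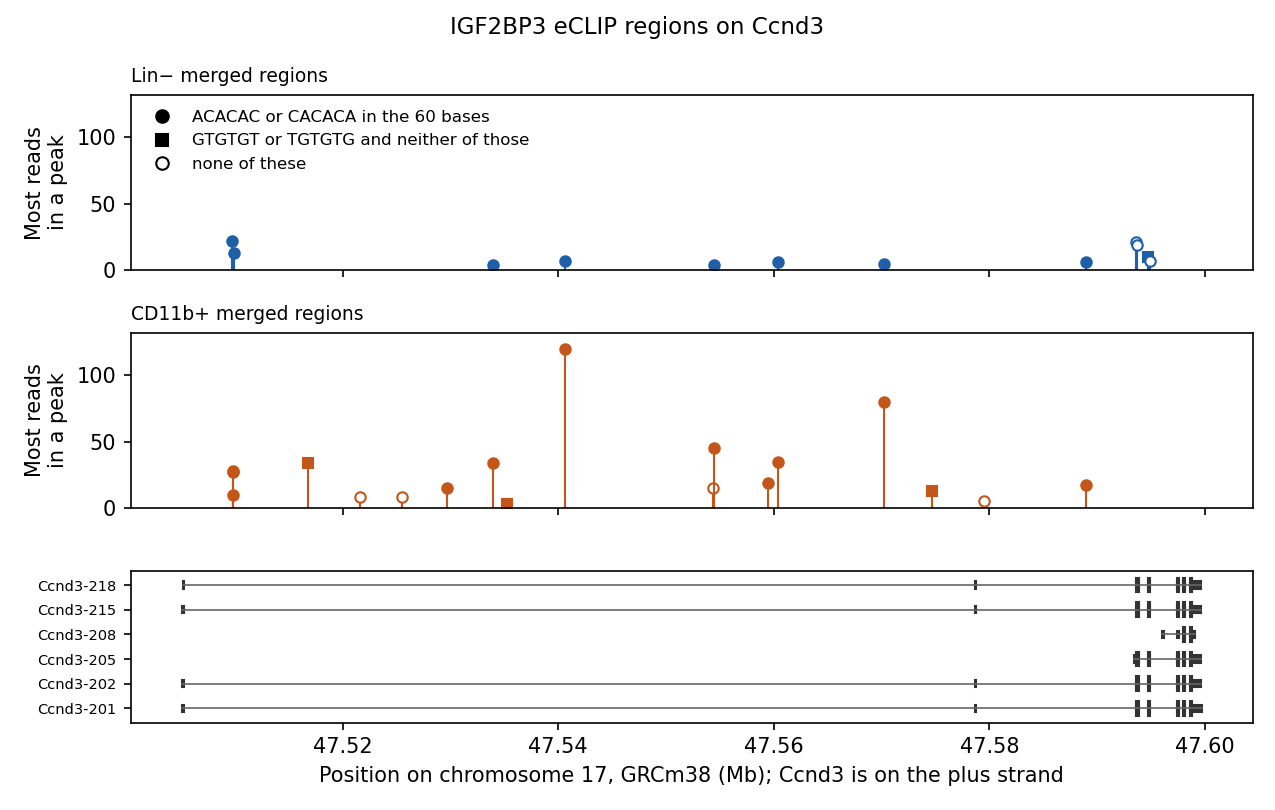
Merged IGF2BP3 regions on Ccnd3 in Lin− (blue) and CD11b+ cells (orange), with the most reads in a peak of each region on the vertical axis, the position on chromosome 17 (GRCm38, Mb) on the horizontal axis and the transcripts of the GENCODE basic set below, coding exons taller. Of the 18 CD11b+ regions 16 lie in the first intron, whereas Lin− regions also lie over the exons at the start of the coding sequence.

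The kinases were among the highest in level. Cdk4 (ENSMUSG00000006728), whose product is activated by D-type cyclins, had a mean of 8556 in Lin− cells (4168 per kb, percentile 98.6) and of 2223 in CD11b+ cells (1083 per kb, percentile 93.2). Cdk6 (ENSMUSG00000040274), which encodes the other kinase of D-type cyclins, had a mean of 27299 in Lin− cells (2369 per kb, percentile 97.0) and of 37747 in CD11b+ cells (3275 per kb, percentile 97.3). The shift in percentile from Lin− to CD11b+ cells was −5.36 points for Cdk4 and 0.248 for Cdk6.

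Filtered peaks on Cdk4 stood at 2.72, 0 and 2.30 per 10000 in Lin− biological replicates 1 to 3 and at 1.17 and 0 in CD11b+ biological replicates 1 and 2, so the groups overlapped. All 4 Lin− regions of this short gene spanned an exon junction, as did 45.0% of the Lin− regions of all genes. The reproducible region chr10:127065906-127065977, plus strand, had its middle 11 bases from the 3′ splice site of the fifth intron and was held by Lin− 1, 3, 4 and 6. The CD11b+ region, chr10:127064475-127064531 in the second intron, was 49 bases from a 5′ splice site and was seen in CD11b+ 1 alone.

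Cdk6 (chr5:3341485-3531008, plus strand) had 0, 4.98 and 3.45 filtered peaks per 10000 in Lin− biological replicates 1 to 3, and 0, 15.4 and 8.87 in technical replicates 4 to 6. In CD11b+ cells it had 8.22 and 7.96 in biological replicates 1 and 2, and 5.27 and 5.65 in technical replicates 3 and 4. Both biological CD11b+ libraries were above the 3 biological Lin− ones, but technical Lin− 5 and 6 were higher than any CD11b+ library. None of the 16 Cdk6 regions lay within 50 bases of a splice site.

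Most Cdk6 peaks before filtering lay in a stretch of CA repeats in the fifth intron, chr5:3479817-3480414, 598 bases long, of which 86.9% of the dinucleotides were CA or AC. All 10 eCLIP libraries and 9 of the 10 smInput libraries had a peak there. Of 226 eCLIP peaks in the stretch, 196 were removed with the input and 30 were left, beside 39 smInput peaks. After filtering the stretch held 20 of the 22 Cdk6 peaks in Lin− but 10 of the 23 in CD11b+ libraries. An annotated gene on the opposite strand, Gm17590, covers the same bases.

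The libraries differed in how many peaks were left in the Cdk6 stretch. Lin− 1 to 6 kept 0 of 10, 5 of 9, 3 of 15, 0 of 12, 8 of 10 and 4 of 13 peaks. CD11b+ 1 to 4 kept 0 of 3, 7 of 77, 0 of 6 and 3 of 71, so CD11b+ 2 and 4 held by far the most before filtering. Over all genes, the filtered peaks of each library overlapped no peak of 2 inputs of its cell type, its own number and 1 other: 1 with 4, 2 with 5 and 3 with 6 in Lin− cells, and 1 with 3 and 2 with 4 in CD11b+ cells. All peaks removed from the stretch overlapped a peak of these 2 inputs, which together covered 592, 141 and 399 of its bases in the Lin− pairs and 577 and 513 in the CD11b+ pairs. The part of the input peaks in the difference in filtered Cdk6 peaks between cell types was not tested.

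**Figure D4:**
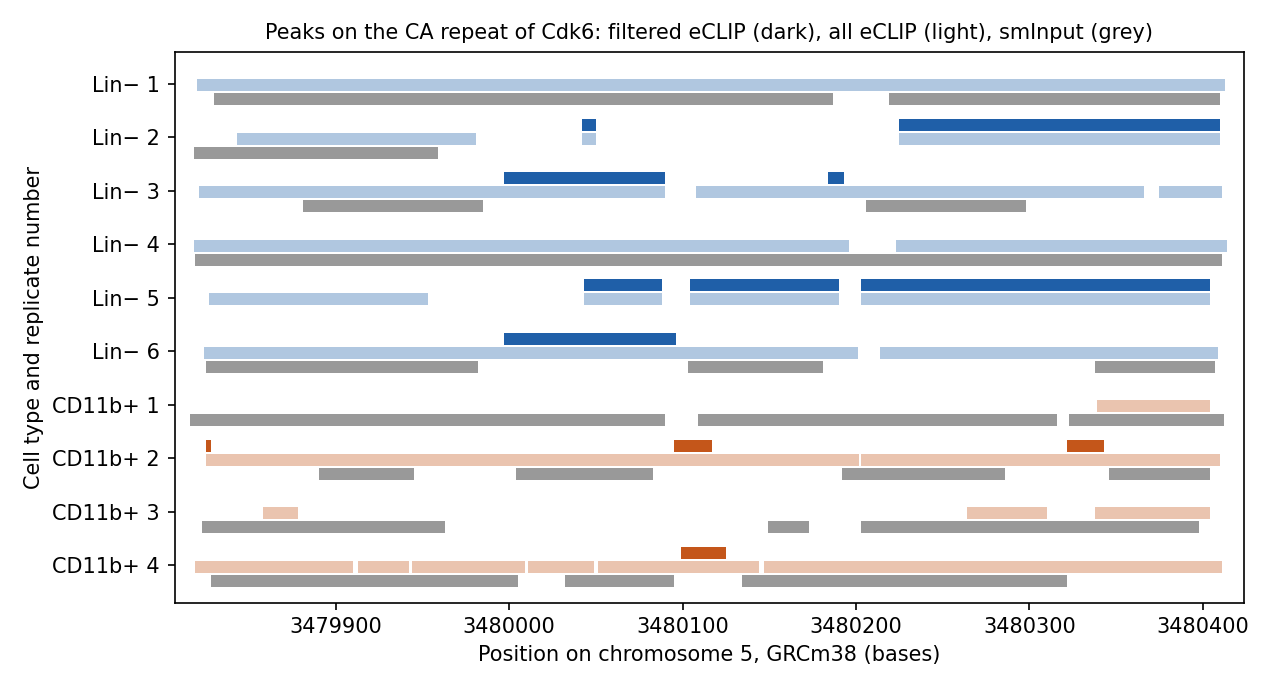
Peaks in the CA repeat of the fifth intron of Cdk6 (chromosome 5, GRCm38, plus strand, position in bases) in each eCLIP library, before (light) and after (dark) removal of peaks that overlap smInput, with the peaks of the smInput library of the same number in grey and overlapping peaks drawn as 1 bar. The repeat spans 598 bases, and 30 of 226 eCLIP peaks were left after removal.

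Away from that stretch, Cdk6 had a further CA repeat in the fourth intron, chr5:3444810-3444870, with a peak of 64 reads in CD11b+, shared by Lin− 5, and no smInput peak in any library. In the fifth intron, chr5:3488046-3488139 held peaks of CD11b+ 1 and 3 with up to 81 reads in a peak, without ACACAC or CACACA in its window, and peaks of 2 smInput libraries lay over it. None of the 7 filtered Cdk6 peaks of CD11b+ 1 lay in the CA repeats, and 2 of them were 1 or 2 bases wide with 3 reads each. The regions named here are not all of those that Cdk6 had away from the stretch.

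The E-type cyclins, which activate CDK2 late in G1, were lower than the D-type cyclins in Lin− cells. Ccne1 (ENSMUSG00000002068) had a mean of 442 in Lin− cells (221 per kb, percentile 68.7) and of 242 in CD11b+ cells (121 per kb, percentile 65.7). Ccne2 (ENSMUSG00000028212) had a mean of 741 in Lin− cells (232 per kb, percentile 69.4) and of 324 in CD11b+ cells (101 per kb, percentile 63.3). Both were above Ccnd2 per kb in CD11b+ cells.

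Each E-type cyclin had its peaks in a single Lin− library, so no region was reproducible. For Ccne1 it was technical replicate 5, with 1.54 filtered peaks per 10000, at chr7:38106662-38106723 on the minus strand, 8 bases from a 3′ splice site. For Ccne2 it was biological replicate 1, with 2.72 per 10000, at chr4:11192758-11192815 and chr4:11194961-11195009 on the plus strand, 28 and 34 bases from a 3′ splice site. All 3 regions of the pair were thus of the kind near 3′ splice sites.

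The inhibitors stood at percentiles 70.4 to 92.1, below Cdk4, Cdk6 and Ccnd3 per kb in both cell types. Cdkn1a (ENSMUSG00000023067), which encodes p21, a target of p53, had a mean of 3003 in Lin− cells (1105 per kb, percentile 92.1) and of 1123 in CD11b+ cells (413 per kb, percentile 83.7). Cdkn1b (ENSMUSG00000003031), which encodes p27, had a mean of 2507 in Lin− cells (551 per kb, percentile 83.2) and of 1542 in CD11b+ cells (339 per kb, percentile 81.1). Cdkn2c (ENSMUSG00000028551), which encodes the INK4 inhibitor p18, had a mean of 669 in Lin− cells (249 per kb, percentile 70.4) and of 722 in CD11b+ cells (269 per kb, percentile 77.8). Among the 10 genes, Cdkn2c had the largest upward shift in CD11b+ cells, 7.35 points, and no filtered peak in any of the 10 eCLIP libraries.

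Cdkn1a and Cdkn1b were the genes with a filtered peak in all 5 biological eCLIP libraries beside Ccnd3. Cdkn1a had 1.36, 0.996 and 3.45 filtered peaks per 10000 in Lin− biological replicates 1 to 3 and 1.17 and 1.99 in CD11b+ biological replicates 1 and 2. Cdkn1b had 2.72, 2.99 and 1.15 in Lin− and 5.87 and 2.98 in CD11b+ cells. In both genes the cell types overlapped, and CD11b+ 1 held the highest Cdkn1b value of the biological libraries. All technical Lin− replicates were at 0 for Cdkn1b, whereas CD11b+ 3 and 4 had 6.59 and 1.41.

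In Lin− cells the strongest Cdkn1a region was in the 5′ UTR, chr17:29093929-29094087 on the plus strand, with 82 reads over 4 libraries, 2 of them biological. In CD11b+ cells it was a TG repeat in the first intron, chr17:29095331-29095418, 1332 bases from a 5′ splice site, present in all 4 libraries with 43 reads. The other cell type had peaks at both places, with 12 reads over 2 CD11b+ libraries in the 5′ UTR and 3 reads in 1 Lin− library at the TG repeat. On Cdkn1b, chr6:134921897-134921966 on the plus strand, 24 bases from the 3′ splice site of the first intron, was held by all 3 biological Lin− replicates, with 15 reads, and CD11b+ 1 and 3 had peaks there with 18 reads. Of the 4 Lin− regions of Cdkn1b, 2 were in the 3′ UTR, 1 of them overlapping a CD11b+ region. Of the 6 CD11b+ regions of Cdkn1b, 4 were in the 3′ UTR, among them chr6:134924396-134924594, held by all 4 libraries, and chr6:134925366-134925441, held by 3.

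Of the 10 reproducible Lin− regions, 6 lay within 50 bases of a 3′ splice site, which is usually preceded by a run of pyrimidines. The share among the reproducible regions of all genes was not counted. The sites of the 5 of these 6 regions classed as intronic are shown with 25 bases of intron and 5 of exon. They run 5′ to 3′ on the strand of the gene, and capitals mark the last 2 bases of the intron. The sites are chr7:144937449-144937478 (minus), chr6:127148875-127148904 (minus), chr17:47594709-47594738 (plus), chr10:127065928-127065957 (plus) and chr6:134921931-134921960 (plus), in GRCm38.
Ccnd1: tgaccgtgttcctcattctctgcAGcaaat
Ccnd2: gaccctaccccactcttgattgtAGgtctg
Ccnd3: caatgactcgtgcgccctccctcAGgtgtg
Cdk4: tactttgagtctttttctgccttAGgcctc
Cdkn1b: aaatttccccttgcccccctcttAGattct
Of the 20 bases before the AG, 80% were pyrimidines in Ccnd1, 75% in Ccnd2, 75% in Ccnd3, 80% in Cdk4 and 95% in Cdkn1b. None of these 5 stretches of 30 bases held ACACAC or CACACA.

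Some of the regions far from splice sites held dinucleotide repeats, and 30 bases of 4 such regions are shown in the same way, from chr17:47540597-47540626, chr5:3480097-3480126, chr17:47516741-47516770 and chr17:29095359-29095388, all on the plus strand of GRCm38. In the first and the second, capitals mark ACACAC or CACACA, and in the others GTGTGT or TGTGTG.
Ccnd3 first intron, CA: ACACACACACACACACACACACACACACAC
Cdk6 intron, CA: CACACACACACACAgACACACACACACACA
Ccnd3 first intron, TG: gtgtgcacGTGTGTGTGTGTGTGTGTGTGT
Cdkn1a first intron, TG: gtacgtgcGTGTGTGTGTGTGTGTGTatgc
The CA repeat of Ccnd3 shown is the one with the most reads in a peak. Peaks of smInput libraries lay over the CA repeat of Cdk6 and over none of the other 3 regions.

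The study used smInput to filter its eCLIP peaks. Here each gene's unfiltered peaks per 10000 were compared between the 5 biological eCLIP libraries and the 5 smInput libraries of the same numbers. The test was a two-sided exact permutation test within cell types, adjusted by Benjamini-Hochberg over 10389 genes. The labels do not give the kind of replicate of an input, so these inputs were picked by number alone. Cdkn1a had 1.1, 0.862 and 3.03 in the Lin− eCLIP libraries, 1.05 and 1.70 in the CD11b+ ones, and 0 in all 5 inputs. Cdkn1b had 2.20, 2.58 and 1.01 in Lin− and 5.23 and 2.55 in CD11b+ eCLIP libraries, and 0 in all 5 inputs. In both genes every eCLIP library was therefore above every input.

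With differences of 1.52 for Cdkn1a and 2.91 for Cdkn1b, both had an exact permutation p of 0.0167, the smallest the test can give, and an adjusted p of 0.130. An unadjusted exact permutation p below 0.05 was reached upward by 2 of the 8 G1 genes tested, against 8.75% of all genes tested. No G1 gene had an adjusted p below 0.05, against 0% of all genes in this permutation test, in which 909 genes had an unadjusted p below 0.05 with eCLIP higher and 443 with smInput higher. A single peak in an input of this test already counts for 5.31 to 7.51 per 10000, more than the eCLIP level of Cdkn1a and most others. A value of 0 in the inputs therefore carries limited weight. These p-values measure the spread between libraries. They depended on the libraries used: with technical replicates added, which are not independent, the adjusted permutation p was 0.0377 for Cdk4 (difference 0.891), 0.00279 for Cdkn1a and 0.0172 for Cdkn1b. Over the other alternatives it reached up to 0.904 for Cdk4 and up to 0.481 for Cdkn1a and Cdkn1b.

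Ccnd3 had 3.29, 7.75 and 7.06 unfiltered peaks per 10000 in Lin− and 6.28 and 18.7 in CD11b+ eCLIP libraries, against 0, 0 and 7.51 and 6.01 and 0 in the inputs of the same numbers. It was higher in 4 of 5 pairs, with a difference of 6.51 and an exact permutation p of 0.0833 (adjusted p 0.349), and the difference was 1.90 without CD11b+ 2 and 11.1 without CD11b+ 1. Cdk6 had 11, 7.75 and 15.1 in Lin− and 10.5 and 70.5 in CD11b+ eCLIP libraries, against 27.7, 7.25 and 15.0 and 42.0 and 26.5 in the inputs. Its values overlapped throughout, with a difference of 0.427, higher in 3 of 5 pairs, and an exact permutation p of 0.95. Its sign rested on single libraries, since the difference was −18.5 without CD11b+ 2, −1.04 without Lin− 2 and −0.941 without Lin− 3, but 19.3 without CD11b+ 1 and 3.26 without Lin− 1. The scale mattered too: in numbers of peaks not divided by those of the library, every eCLIP library was above every input for both genes. On that scale the difference was 24.6 for Cdk6 and 9.75 for Ccnd3, each with an exact permutation p of 0.0167 (adjusted p 0.144), while the inputs held far fewer peaks in all. For Ccnd1, Ccnd2, Cdk4 and Ccne2 the exact permutation p lay between 0.2 and 1, and Ccne1 and Cdkn2c had no peak in these libraries.

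The comparison of cell types used the filtered peaks per 10000 of the 3 Lin− and 2 CD11b+ biological libraries, with 9290 genes tested. An exact two-sided permutation test of 3 against 2 cannot give a p below 0.1, so no gene could pass 0.05. Cdk6 was the G1 gene whose groups did not overlap, with 2.81 ± 2.55 (SD, n = 3) in Lin− and 8.09 ± 0.182 (SD, n = 2) in CD11b+ cells and an exact permutation p of 0.2. The 2 CD11b+ values came from different places: no Cdk6 region held peaks of both libraries, and 7 of the 8 peaks of CD11b+ 2 were pieces of the CA stretch, 3 to 11 bases wide. The Cdk6 difference of Lin− minus CD11b+ was −5.27, but −1.32 with technical libraries added (exact permutation p 0.695) and −29.2 with unfiltered peaks (exact permutation p 0.3). All Lin− libraries were below the CD11b+ ones for 1 of the G1 genes, against 10.6% of all genes, and above them for 0, against 9.34%.

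Ccnd3 had 6.20 ± 3.18 (SD, n = 3) in Lin− and 10.3 ± 7.93 (SD, n = 2) in CD11b+ cells, with an exact permutation p of 0.5. The difference of Lin− minus CD11b+ was −4.11, and 1.5 without CD11b+ 2, −9.72 without CD11b+ 1 and −2.37 without Lin− 1. It was −6.66 with technical libraries added and −6.45 with unfiltered peaks. Cdkn1b had 2.29 ± 0.991 (SD, n = 3) and 4.43 ± 2.04 (SD, n = 2), with an exact permutation p of 0.2. Its difference of −2.14 was −0.699 without CD11b+ 1 and −3.58 without CD11b+ 2. With technical libraries added it was −3.07 (exact permutation p 0.0333, adjusted p 0.268). Technical libraries are not independent of the biological ones, so p-values with them added in the comparison of cell types count repeats as samples. For Cdkn1a, with 1.94 ± 1.33 (SD, n = 3) and 1.58 ± 0.577 (SD, n = 2), the exact permutation p was 0.9, and the difference changed sign without Lin− 3 (−0.404) or CD11b+ 1 (−0.0531). For Ccnd1, Ccnd2, Cdk4 and Ccne2, all with a higher mean in Lin− cells, it lay between 0.4 and 1. The difference for Cdk4 was 1.09, from 0.5 to 1.92 with a library left out, and 1.58 with technical libraries added (exact permutation p 0.0429, adjusted p 0.302). In each of these genes the values of the cell types overlapped.

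Removal with the input touched Cdk6 most. Of the peaks on the 10 genes, 53 of 135 in Lin− and 171 of 254 in CD11b+ libraries were removed, 49 and 155 of them on Cdk6. Over all genes, 12.4 to 25.9% of the peaks of a Lin− library and 10.8 to 17.3% of those of a CD11b+ library were removed. Of those that were left, 27 of 82 and 21 of 83 overlapped a peak of any smInput library of the series, against 8.69% and 6.81% of the filtered peaks of all genes. In the tally of regions, 7 of 43 in Lin− and 9 of 38 in CD11b+ cells held such a peak, all on Ccnd3 or Cdk6.

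The genes most like Ccnd3 in filtered peaks per 10000 over the 10 eCLIP libraries, among 349 with enough peaks, were Zfp516 (r = 0.961), Ptpre (r = 0.925), Sipa1l3 (r = 0.918), Nedd9 (r = 0.914) and Man1c1 (r = 0.910). This is a description over libraries that share depth and cell type. Ptpre reached 33.9 per 10000 in its highest library.

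Of 26 further genes of the G1 pathway, among them the E2F factors, the retinoblastoma family and regulators of CDK2, all had a mean of at least 10 in both tables, and 19 in Lin− and 11 in CD11b+ cells had a mean of at least 1000. Their median percentile was 81.3 and 74.9, and Tfdp1, a partner of E2F factors, was the most abundant in both. Filtered peaks lay on 18 of the 26 in Lin− cells, in 41 regions, and on 15 in CD11b+ cells, in 31 regions. Of all genes with a mean of at least 10, 39.8% and 37.1% had one, and of those with a mean of at least 1000, 76.5% and 68.4%. The most regions were on E2f8 (5), Cdc25a (4) and Tfdp1 (4) in Lin− cells, with 3 each on Ccna2, Cdk2, Cdk7 and Rbl2, and on E2f2 (7) and E2f3 (4) in CD11b+ cells, with 3 each on Rb1, Rbl1 and Rbl2.

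As a check of the labels, the genes of the fusion and of the protein itself were read in the same way. Kmt2a, which gives the MLL part of the fusion, had 405 filtered peaks in Lin− cells, and Aff1, which gives the Af4 part, had 1385, in 47 and 33 regions that all lay in coding exons. In CD11b+ cells Kmt2a had 58 filtered peaks in 6 regions, 5 of them coding, and Aff1 had 12 in 7, of which 4 were coding. Igf2bp3 had 7 filtered peaks in Lin− and 8 in CD11b+ cells.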

How the data were processed

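The authors' deposited tables give, for each gene, the signal as a mean of normalised counts over the RNA-seq libraries of both genotypes. The deposited peak files give a p-value per peak from CLIPper, called by the authors at 0.05, and their track lines name different settings for eCLIP (directional UMI deduplication) and smInput (unique). The authors mapped reads to GRCm38 (mm10) with STAR 2.5.3a and masked repeats with Bowtie2. Columns of the tables with fold changes and p-values of knockout against wild type were not used, and that comparison was not tested.

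The members and lists were chosen with earlier results of these data known. All 10 members were named, with the pathway genes with most regions and the genes most like the member with most peaks. Gene models were GENCODE M21 (basic), and exon length was the union of exons. Peaks were merged at an overlap of 1 base on the same strand, and a region's class was read at its middle base. The splice-site limit of 50 bases, the junction counts and GTGTGT or TGTGTG were chosen after seeing the data.

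Labels of eCLIP and smInput were permuted within cell type (120 arrangements) and, since an input was taken from each sample, also swapped within the 5 pairs (32 arrangements). Deviations from the group mean correlated within these pairs at −0.125 to 0.00964. Technical replicates were left out of the tests, since the labels do not say which library each repeats. Alternatives were a stricter peak p-value, each replicate left out, technical replicates added, and other overlaps, windows, annotation and length scales. Python 3.11.15, NumPy 2.4.6 and matplotlib 3.10.9 were used, and the tests were checked on simulated data.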

Additional observations from a re-analysis of the deposited data

Results flagged for a closer look

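Among 11 measures of the eCLIP libraries examined for a library far from the others of its cell type, 0 passed Dixon's critical value. Technical replicates, which are not independent, were counted beside the biological ones. A library with a similar technical one could therefore hardly pass, and no conclusion is drawn from this count.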

How the results depend on the processing

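The number of G1 genes with a filtered peak, 9 in Lin− and 6 in CD11b+ cells, was 7 and 4 at a peak p-value below 0.001 and 7 and 4 in at least 2 biological replicates. Merged regions fell from 43 to 24 in Lin− and from 38 to 31 in CD11b+ cells at a peak p-value below 0.001, by construction of the stricter limit. Biological libraries alone gave 40 in Lin− and 44 in CD11b+ cells, and with 1 of them left out 26 to 35 and 19 to 29, the latter from single libraries. Intronic regions numbered 26 to 37 in Lin− (32 in the text) and 28 to 30 in CD11b+ cells (29 in the text) over other ways to class a region, the lowest of each with a wider annotation added after seeing the data. Windows of 100 bases held ACACAC or CACACA in 15 and 19 regions.

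Genes with an adjusted p below 0.05 for eCLIP against smInput went from 0 to 3 (Cdk4, Cdkn1a and Cdkn1b) with technical libraries added, which are not independent. Pairing eCLIP and smInput by number changed no adjusted call, and its smallest exact p is 0.0625. In peaks not divided by those of the library, the exact permutation p of Ccnd3 went from 0.0833 to 0.0167 and that of Cdk6 from 0.95 to 0.0167, both with an adjusted p of 0.144. Cdk6 changed sign to −1.04 without Lin− replicate 2, −0.941 without Lin− replicate 3 and −18.5 without CD11b+ replicate 2, and rose to 19.3 without CD11b+ replicate 1. For Lin− minus CD11b+, Cdk6 went from −5.27 to −1.32 with technical libraries and to −29.2 with unfiltered peaks, Cdkn1b from −2.14 to −0.699 without CD11b+ replicate 1, and Ccnd3 lay between −9.72 and 1.5 with a replicate left out, and changed sign to 1.5 without CD11b+ replicate 2. Cdkn1a changed from 0.355 to −0.404 without Lin− replicate 3 or with replicates of the same number joined, and to −0.0531 without CD11b+ replicate 1, and its highest value was 0.825, without Lin− replicate 2. The number is all that joins those replicates (correlation −0.156). Apart from these libraries, the cause was not tested. With a replicate left out, these designs are too small to pass the threshold in the cell type comparison.

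Of 60 alternative percentiles, 14 moved by over 5 points, 11 of them where genes with a mean below 10 were left out. Ccnd2 in CD11b+ cells was at 30.6 then, and at 69.1 without length correction. Peak number limits what the eCLIP comparisons can show.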

Other observations

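Libraries of a cell type shared peaks to different degrees. Of the filtered peaks of CD11b+ technical replicate 4, 65.8% overlapped a peak of biological replicate 2, and 19 of its 20 peaks on the G1 genes did. For technical replicate 3 and biological replicate 1 the values were 58.9% and 11 of 15. In Lin− cells, 69.9% of the filtered peaks of technical replicate 5 overlapped biological replicate 2, with 12 of 20 on the G1 genes, and 60.3% of those of replicate 6 overlapped replicate 3, with 7 of 8. For Lin− technical replicate 4 and biological replicate 1 the share was 63.3%. With the other biological replicates of the cell type, technical replicates overlapped at 40.4 to 48.2% in Lin− cells. In CD11b+ cells these shares were 48.4% for replicate 3 and 41.5% for replicate 4. The labels do not say which biological library a technical one repeats. Among biological libraries, each technical one overlapped most with that whose filtered peaks avoided the same inputs.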
